A study of Mus musculus with 6 samples.

Results

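Semaphorins, ephrins and netrins are the ligands of 3 large families of axon guidance cues, and plexins, neuropilins, Eph receptors, Dcc, neogenin and the Unc5 proteins are their receptors. The 65 genes described here are those whose names in the deposited table match these families (Sema3 to Sema7, Plxna to Plxnd, Nrp1 and Nrp2, Eph and ephrin genes of the A and B classes, netrins with the netrin-G proteins, Unc5a to Unc5d, Dcc and Neo1), out of 31032 distinct names in 31469 rows. Each of the 65 names had a single row. RNA sequencing was done on parvalbumin-positive neurons of L4 (lumbar) dorsal root ganglia of C57BL/6 mice at postnatal day 21. The KO group holds 3 libraries from animals in which Dicer, the enzyme that makes mature microRNAs, was conditionally ablated with parvalbumin-Cre, and the WT group holds 3 wild-type libraries. The sources used here do not say whether the wild-type animals carried Cre or a floxed allele, nor whether each library is a separate animal, so p-values measure the spread between these libraries, which may be technical. Values are TPM, transcript abundances scaled for length and for each library's total. They keep no sequencing depth, so the precision of low values is unknown.

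A growth cone reads these cues through receptors that steer its actin cytoskeleton. Class 3 semaphorins are secreted and mostly act through a neuropilin paired with a plexin, whereas the other vertebrate semaphorins sit in the membrane and bind plexins directly. Ephrins and Eph receptors meet at cell contacts and can signal in both directions. Netrins attract through Dcc and repel through Unc5 proteins. In the mouse, semaphorin 6C and 6D acting on plexin A1 keep proprioceptive axons out of the dorsal spinal cord, and semaphorin 3E with plexin D1 helps to match sensory and motor neurons. Many of these genes stay expressed after wiring is complete.

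Checks on the libraries came first. Dicer1 was at 24.0, 20.8 and 21.8 TPM in KO libraries, against 36.7, 25.99 and 48.7 TPM in WT libraries, and its difference did not pass the test (log2 -0.68, limma adjusted p = 0.104). The value covers the whole gene and checks no particular exon. Of 7 proprioceptor markers found, Pvalb, Etv1, Spp1 and Runx3 fell and 3 did not pass, and the list summed to 4450 to 4848 TPM in KO and 5791 to 6637 TPM in WT libraries. Pvalb was at 7.23 ± 5.85 TPM in KO and 22.6 ± 2.71 TPM in WT libraries (SD, n = 3 each, adjusted p = 0.0452). Satellite glia transcripts were present throughout: all 12 markers were tested, Fabp7, Gja1 and Ptn fell, and 9 did not pass. Of these 9, Glul was at 226 ± 16.8 TPM in KO and 149 ± 48.4 TPM in WT libraries without overlap (0.65, adjusted p = 0.105), and Cadm2 was at 50.7 ± 11.4 TPM in KO and 33.4 ± 9.23 TPM in WT libraries (0.60, adjusted p = 0.153); the other 7 differences were negative. The markers summed to 903 to 1502 TPM in KO and 1470 to 2698 TPM in WT libraries. Replicate 3 of each group lacked Xist and expressed the Y-linked Ddx3y. Between 14496 and 17688 rows were above 0 in a library, the lowest in WT replicate 2.

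At this age guidance transcripts ranged widely in level, led by netrin-G1. Of the 65 genes, 22 averaged 10 TPM or more across the 6 libraries, 50 averaged 1 TPM or more and were tested, and 15 lay below. The 65 genes summed to 1407 ± 70.9 TPM in KO libraries and 1206 ± 82.6 TPM in WT libraries (SD, n = 3 each), and the netrin-G pair alone made up 498 ± 58.2 TPM in KO and 253 ± 22.8 TPM in WT libraries. Differences were tested with limma on log2(TPM + 1) over all 13787 rows that averaged 1 TPM or more, with Benjamini-Hochberg adjustment and a threshold of 0.05. Fold changes on that scale understate the change of low genes.

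**Figure D1:**
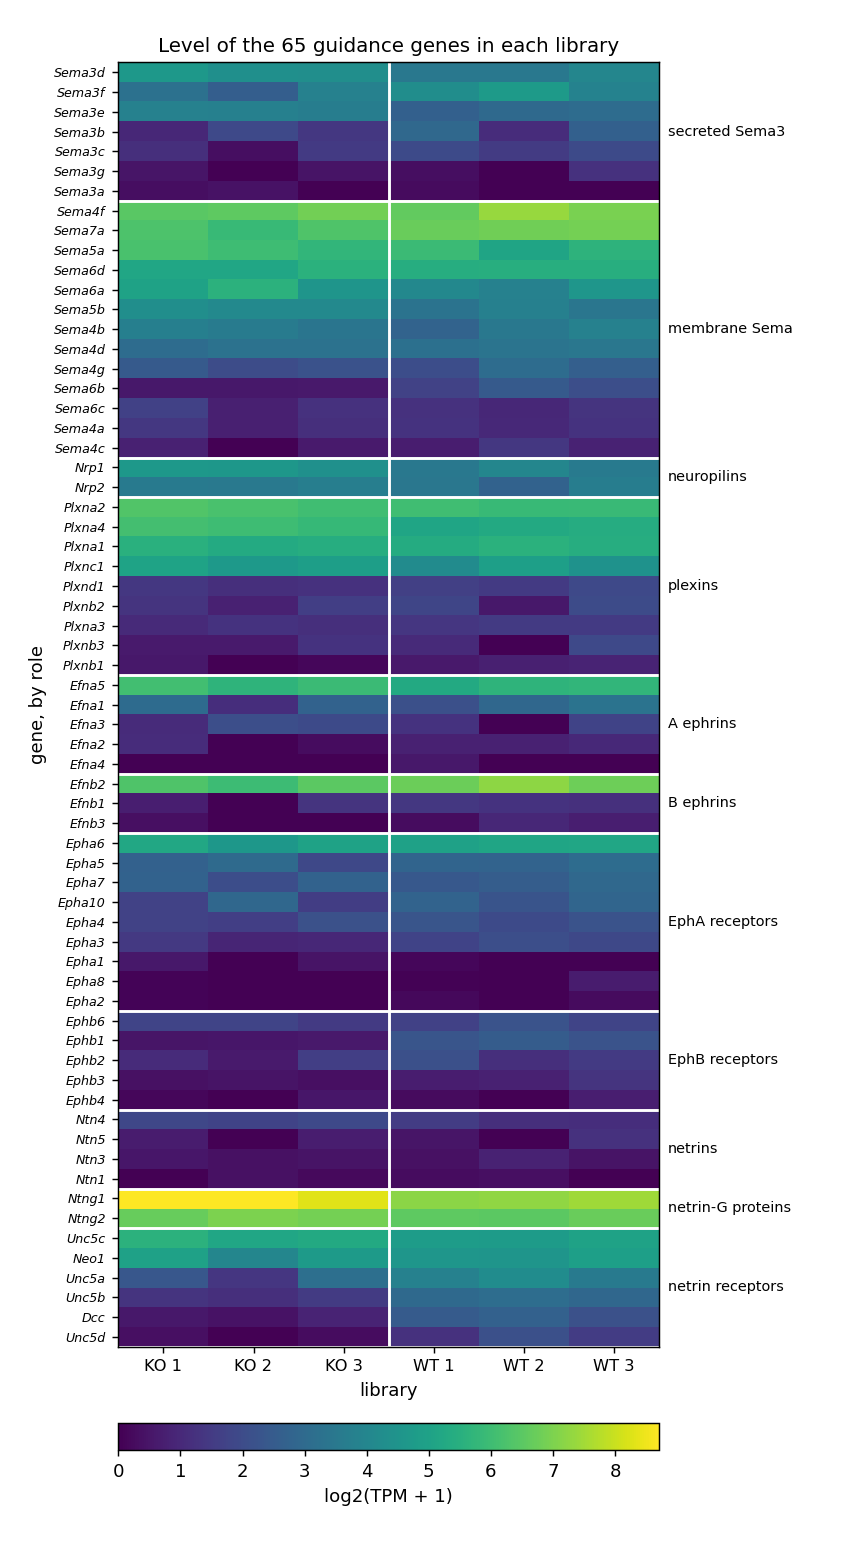
Heat map of log2(TPM + 1) for the 65 guidance genes (rows, grouped by role and ordered by mean level) in 3 KO and 3 WT libraries (columns). Ntng1 is the brightest row, with 417, 416 and 316 TPM in KO libraries and 147, 152 and 176 TPM in WT libraries, and the Eph receptors apart from Epha6 are dark in both groups.

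In KO libraries 4 guidance genes rose (Ntng1, Plxna4, Nrp1 and Sema3e) and 5 fell (Dcc, Ephb1, Unc5b, Sema6b and Sema7a), and 41 of the 50 tested did not pass. The called share was 18.0% of the tested guidance genes, against 5.03% of all tested rows; 8.0% were higher against 1.86%, and 5 of 50 were lower against 3.17%. The genes were chosen with earlier results of these data known, so the shares are a description. The groups did not overlap for 22 of the 50 genes (44.0%, against 28.9% of all rows), of which 9 were the called genes. The median log2 difference of the 50 genes was -0.15, against -0.05 over all rows, and 18 of the 50 were positive. Ntng1, Plxna4, Nrp1, Sema3e and Sema7a averaged above 5 TPM over all libraries, and Dcc, Ephb1, Unc5b and Sema6b averaged below 5 TPM. Sema3e also had a WT mean under 10 TPM, as did Dcc, Ephb1, Unc5b and Sema6b. With the mean log2(TPM + 1) of the 12 glia markers as a covariate, limma called Ntng1 and none of the other 8 genes. Over all rows it then called 71 higher and 97 lower, against 256 and 437 without the covariate. The glia mean was 5.06, 4.55 and 5.48 in KO and 5.81, 5.11 and 6.33 in WT libraries. It tended to go with genotype, so a call lost under it cannot tell glial transcripts from genotype. Leaving out 1 library gave 33 to 329 higher and 91 to 461 lower rows. Differences under the glia covariate were 0.69 for Plxna4, 0.62 for Nrp1, 0.86 for Sema3e and -1.67 for Sema6b. Those of the other called genes are given beside each gene.

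**Figure D2:**
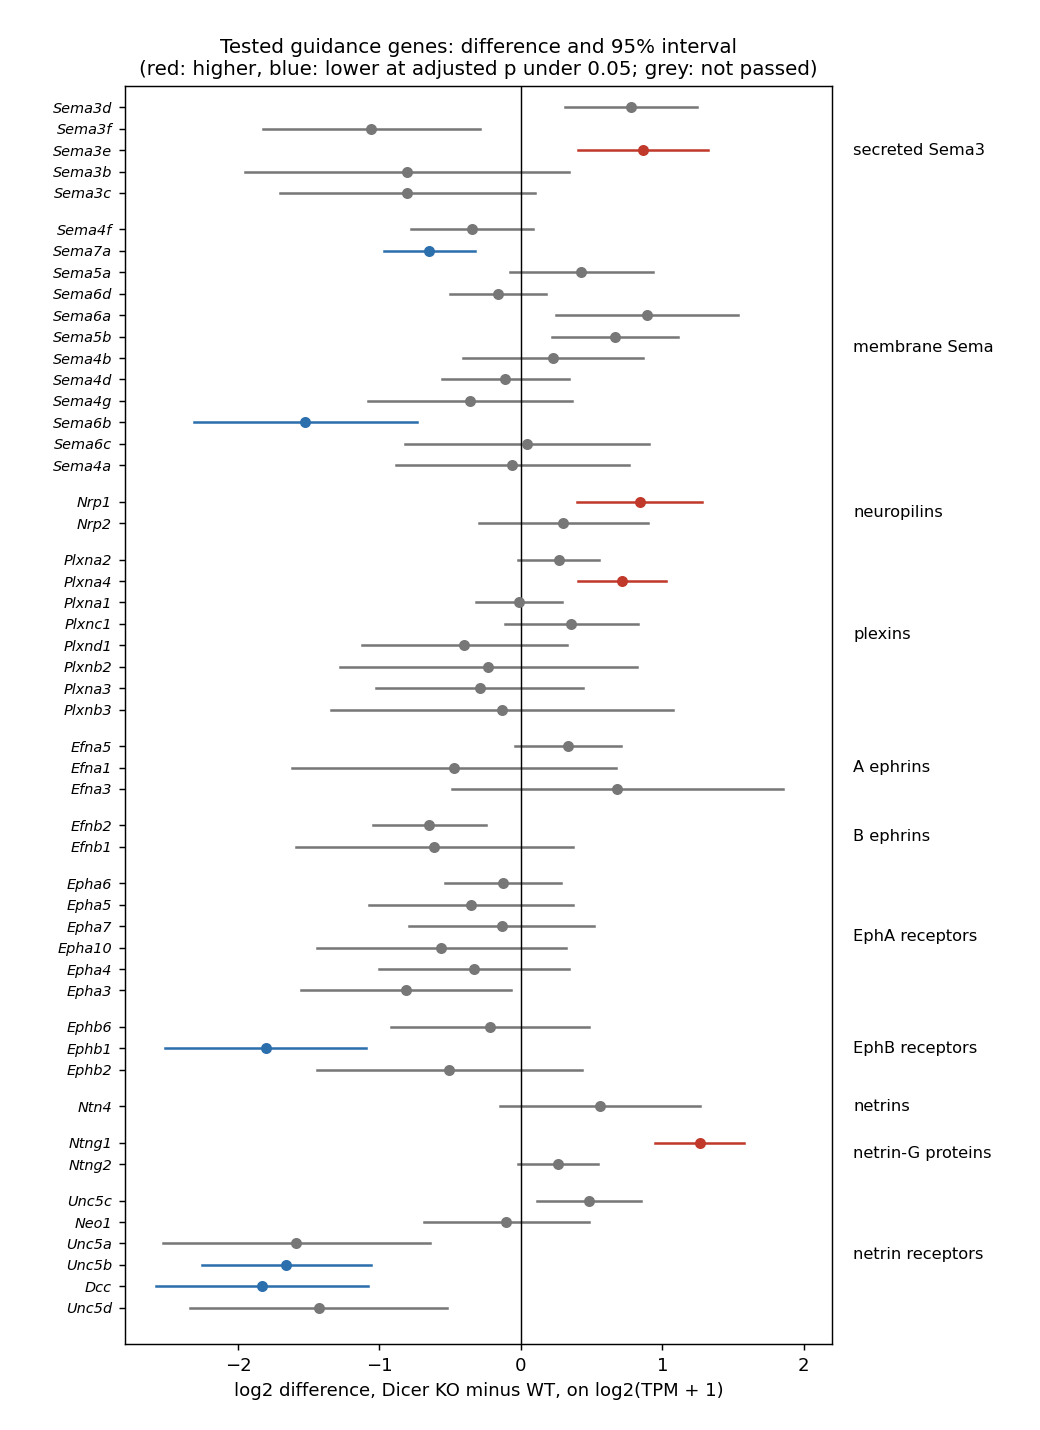
Log2 difference, KO minus WT on log2(TPM + 1), of the 50 tested guidance genes with its 95% interval from limma, grouped by role. The 4 higher genes (red) lie between 0.71 and 1.26 and the 5 lower genes (blue) between -1.83 and -0.65; grey genes did not pass.

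**Figure D3:**
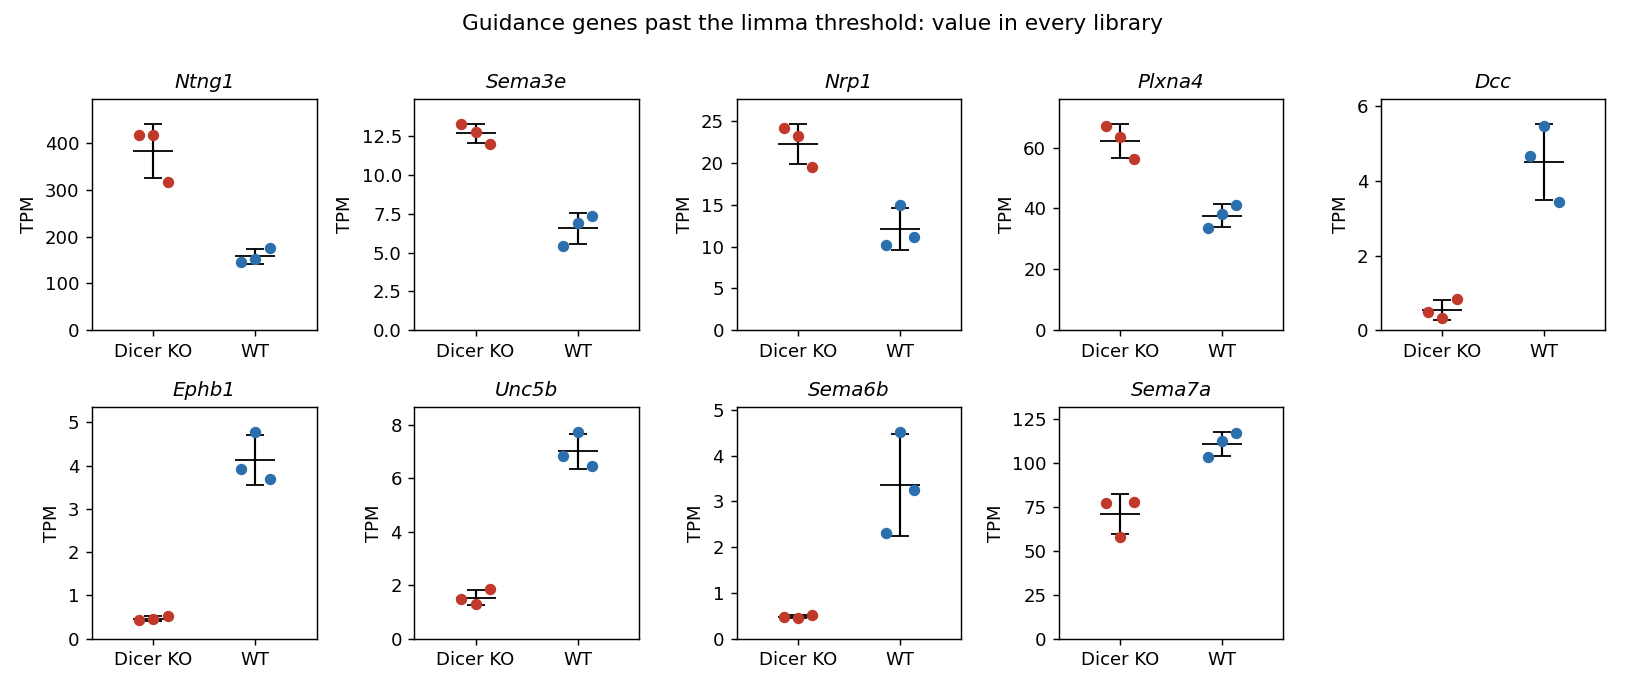
TPM of the 9 called guidance genes in each library (points, replicates 1 to 3 from left to right), with the mean and SD of 3 KO and 3 WT libraries; each panel has its own axis from 0. The groups do not overlap in any of the 9 panels, and the 3 KO values of Dcc, Ephb1 and Sema6b lie below 1 TPM.

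Netrin-G1 had the highest level of all guidance genes and the clearest rise. Ntng1 (chromosome 3, 109780040 to 110144011, GRCm38) encodes a GPI-anchored relative of the netrins that does not bind netrin receptors but the synaptic adhesion protein NGL-1, the product of Lrrc4c. It was at 417, 416 and 316 TPM in KO libraries, against 147, 152 and 176 TPM in WT libraries. Every KO library was above every WT library, and KO replicate 3 was the lowest of its group. The means were 383 ± 58.1 TPM in KO and 158 ± 15.6 TPM in WT libraries (SD, n = 3 each), a 2.42-fold ratio. The log2 difference was 1.26 (SE 0.14, limma adjusted p = 0.00311). The call held whichever single library was left out and with the glia covariate (1.23, adjusted p = 0.0314), and was lost when rows of any level were tested (adjusted p = 0.1).

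Its sister Ntng2 (chromosome 2), which encodes netrin-G2, the ligand of NGL-2, was at 102, 127 and 116 TPM in KO libraries and 91.8, 90.9 and 104 TPM in WT libraries. These groups overlapped, and the difference was 0.26 with a 95% interval from -0.02 to 0.54 (adjusted p = 0.239). Within each library Ntng1 was 4.09, 3.28 and 2.72 times Ntng2 in KO, against 1.596, 1.67 and 1.69 times in WT. The genes for the partners on the facing membrane, Lrrc4c and Lrrc4, did not pass the test. Lrrc4c averaged 21.98 ± 2.74 TPM in KO and 20.5 ± 9.46 TPM in WT libraries, and Lrrc4 averaged 12.3 ± 0.80 TPM in KO and 14.8 ± 1.03 TPM in WT libraries (SD, n = 3 each).

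MicroRNAs pair mainly through bases 2 to 8, their seed, with sites in 3′ untranslated regions, so sites in the called genes bear on a comparison that removes Dicer. Mature sequences of 11 microRNA families known from neurons were taken from RefSeq (GRCm38.p6), and the 7 bases complementary to each seed were searched on the transcript strand of the longest annotated 3′ untranslated region (GENCODE vM21). MicroRNA levels were not measured here. Repeated matches to a family were found in Ntng1, Sema3e and Plxna4, which rose, and in Ephb1 and Dcc, which fell. The families repeated in Ntng1, Sema3e, Plxna4 or Ephb1 are shown with the seed in capitals:
miR-9-5p: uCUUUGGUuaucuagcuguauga
miR-182-5p: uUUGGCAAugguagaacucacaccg
miR-183-5p: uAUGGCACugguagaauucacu

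The untranslated region of Ntng1 spans 2642 bases and holds 3 matches to miR-9 and 2 to miR-182, shown with the matching bases in capitals and their positions on the minus strand of GRCm38:
miR-9 match, chr3:109781714-109781736: aagattccACCAAAGgacatttt
miR-9 match, chr3:109780446-109780468: cccagctcACCAAAGaatgcaca
miR-9 match, chr3:109780331-109780353: tagcacaaACCAAAGgcagactg
miR-182 match, chr3:109781904-109781926: ttgtattaTTGCCAAtttatgtt
miR-182 match, chr3:109781403-109781425: ctaagtgaTTGCCAAgattatgc
Of 2124 tested genes with an untranslated region within 25% of this length, 22.6% held the miR-9 match (ACCAAAG) at least once and 2 genes (0.0942%) held it 3 times or more. The miR-182 match (TTGCCAA) occurred in 19.6% of them, and at least 2 times in 2.59%. Ntng1 is itself a tested gene of this length, so it counts among the 2124 genes and among the 2 with repeated miR-9 matches. The comparison sets given below for other genes likewise include the gene itself. The repeated families were picked after all families had been searched in all called genes. These shares are therefore a description and not a test of rarity. A match is not a measured site, and the untranslated regions that these neurons use are not known from TPM.

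Among the secreted class 3 semaphorins, Sema3e rose, and the most abundant members differed in sign. Sema3e (chromosome 5, 14025276 to 14256689), whose product binds plexin D1 without a neuropilin, was at 13.3, 12.8 and 12 TPM in KO libraries, against 5.43, 6.90 and 7.35 TPM in WT libraries. All KO values lay above all WT values. The means were 12.7 ± 0.63 TPM in KO and 6.56 ± 1.0 TPM in WT libraries (SD, n = 3 each; log2 difference 0.86, SE 0.20, adjusted p = 0.0459). Leaving out any single library ended the call, with adjusted p of 0.165, 0.140 and 0.0964 without KO replicates 1, 2 and 3, and of 0.0844, 0.0932 and 0.0978 without WT replicates 1, 2 and 3.

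The untranslated region of Sema3e (3899 bases) holds 2 matches to miR-183, here on the plus strand, the first of which overlaps a match to miR-128 by 1 base:
miR-183 match, chr5:14254344-14254366: tccactgtGTGCCATtgttctcc
miR-183 match, chr5:14256483-14256505: gtaagcatGTGCCATattgcttc
Of 1490 tested genes with a region of similar length, 22.8% held this match (GTGCCAT) and 2.15% held it at least 2 times.

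Sema3d, the class 3 gene with the highest mean, was at 24.1, 19.3 and 18.9 TPM in KO libraries, against 10.1, 10.3 and 15.0 TPM in WT libraries. The groups did not overlap, and the log2 difference of 0.78 missed the threshold (adjusted p = 0.065); it passed with median-of-ratios rescaling (0.85, adjusted p = 0.039) and with quantile normalization (0.84, adjusted p = 0.0331). Sema3f, which encodes a ligand that acts through neuropilin-2, was at 8.52, 5.05 and 13.2 TPM in KO libraries, against 18.2, 25.9 and 13.4 TPM in WT libraries. The groups did not overlap but nearly touched at replicate 3, and the difference of -1.06 did not pass (adjusted p = 0.103). The ratio of Sema3d to Sema3f within a library was 2.83, 3.82 and 1.43 in KO and 0.56, 0.40 and 1.13 in WT. The class summed to 45.7 ± 4.55 TPM in KO and 45.0 ± 1.21 TPM in WT libraries (SD, n = 3 each). Sema3c, named outside the rule for named genes because its groups did not overlap, was at 1.11 ± 0.775 TPM in KO and 2.52 ± 0.58 TPM in WT libraries (adjusted p = 0.261). Sema3a, the classical repellent of nociceptive axons, was at most 0.33 TPM in any library.

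Of 12 tested membrane semaphorins, 2 fell and 10 did not pass. Sema7a (chromosome 9, 57940112 to 57962865), which encodes the GPI-anchored semaphorin that binds plexin C1 and beta 1 integrins, was at 77.0, 58.0 and 77.9 TPM in KO libraries, against 103, 112 and 117 TPM in WT libraries. All KO libraries were below all WT libraries. The means were 71.0 ± 11.2 TPM in KO and 111 ± 6.82 TPM in WT libraries (SD, n = 3 each; log2 difference -0.65, SE 0.14, adjusted p = 0.0367). This call also ended without any single library, at adjusted p of 0.101, 0.0999 and 0.0552 without KO replicates 1, 2 and 3 and of 0.0501, 0.0992 and 0.128 without WT replicates 1, 2 and 3. With the glia covariate the difference was -0.51 (adjusted p = 0.184).

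Sema6b (chromosome 17, 56123085 to 56140343), a transmembrane ligand of A plexins, was far lower in level, at 0.47, 0.46 and 0.52 TPM in KO libraries and 2.30, 4.52 and 3.25 TPM in WT libraries. The KO libraries lay close together near 0.5 TPM and the WT libraries were spread. The means were 0.48 ± 0.03 TPM in KO and 3.36 ± 1.11 TPM in WT libraries (log2 difference -1.52, SE 0.35, adjusted p = 0.0423). The call held without WT replicate 1 and was lost without KO replicates 1, 2 or 3 (adjusted p = 0.127, 0.113 and 0.0803), without WT replicates 2 or 3 (0.101 and 0.105) and with a pseudocount of 0.1 TPM (0.0521).

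The 3 membrane semaphorins with the highest means were Sema4f, Sema7a and Sema5a. Sema4f averaged 98.5 ± 14.6 TPM in KO and 127 ± 32.9 TPM in WT libraries (log2 difference -0.35, adjusted p = 0.309). Sema5a, which encodes a semaphorin with thrombospondin repeats, averaged 62.6 ± 10.2 TPM in KO and 47.3 ± 14.1 TPM in WT libraries (0.43, adjusted p = 0.281). The other genes of this class that are named here were picked for their known roles or after their values were seen. Sema5b was at 18.7, 16.1 and 16.2 TPM in KO libraries and 8.85, 12.8 and 9.70 TPM in WT libraries, without overlap and without passing (0.66, adjusted p = 0.0846). Sema6a varied within the KO group, at 31.5, 47.1 and 22.3 TPM in KO libraries and 15.9, 13.2 and 22.6 TPM in WT libraries, and its groups overlapped at replicate 3 (0.89, adjusted p = 0.1005). Sema6d, a plexin A1 ligand, averaged 38.3 ± 6.63 TPM in KO and 42.6 ± 0.79 TPM in WT libraries (-0.16, 95% interval -0.50 to 0.18).

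Semaphorin receptors rose in 2 of 10 tested genes and none fell at the adjusted threshold or at an unadjusted p below 0.05. Both changes were in parts of the receptor for class 3 semaphorins. Plxna4 (chromosome 6, 32144268 to 32588192), a signalling subunit, was at 67.1, 63.6 and 56.2 TPM in KO libraries, against 33.5, 38.3 and 41.2 TPM in WT libraries. The lowest KO library lay above the highest WT library. The means were 62.3 ± 5.58 TPM in KO and 37.6 ± 3.90 TPM in WT libraries (SD, n = 3 each; log2 difference 0.71, SE 0.14, adjusted p = 0.0241). The call held without KO replicate 3 or WT replicate 1 and was lost without KO replicates 1 or 2 (adjusted p = 0.113 and 0.0892) or WT replicates 2 or 3 (0.0652 and 0.0658).

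The untranslated region of Plxna4 (6221 bases, minus strand) holds 8 matches to 7 of the 11 families, 2 of them to miR-183:
miR-183 match, chr6:32149374-32149396: agaatctgGTGCCATtgctatgc
miR-183 match, chr6:32147081-32147103: gtgtcttgGTGCCATgaagtcaa
Of 557 tested genes with a region of similar length, 37.2% held this match and 6.1% held it at least 2 times, so repeats are commoner among regions of this length.

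Nrp1 (chromosome 8, 128358604 to 128503363), which encodes neuropilin-1, the binding subunit for semaphorin 3A, was at 24.1, 23.2 and 19.5 TPM in KO libraries, against 10.2, 15.0 and 11.1 TPM in WT libraries. The lowest KO value was above the highest WT value. Its means were 22.3 ± 2.43 TPM in KO and 12.1 ± 2.52 TPM in WT libraries (SD, n = 3 each; log2 difference 0.84, SE 0.19, adjusted p = 0.0442). The call held only without WT replicate 2; it was lost without KO replicates 1, 2 or 3 (adjusted p = 0.167, 0.145 and 0.0726) and without WT replicates 1 or 3 (0.0836 and 0.136). Nrp1 is also a gene of blood vessels, and endothelial and mural markers summed to 19.8 to 31.4 TPM in KO and 15.0 to 21.4 TPM in WT libraries, with Cldn5 at 0 in all 6 libraries, Cdh5 at 0 in all WT libraries and none of 3 tested markers past the threshold. The part of vessel transcripts in the Nrp1 difference was not tested. Nrp2, which encodes the receptor subunit for semaphorin 3F, averaged 11.2 ± 1.02 TPM in KO and 9.21 ± 3.12 TPM in WT libraries (0.30, 95% interval -0.30 to 0.90).

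The other abundant plexins did not pass. Plxna1, the receptor of proprioceptive axons for Sema6c and Sema6d, was at 45.4, 38.7 and 42.3 TPM in KO libraries and 39.6, 46.1 and 41.8 TPM in WT libraries. These values interleave, and the difference was -0.01 with a 95% interval from -0.31 to 0.29; it was 0.06 with median-of-ratios rescaling. Plxna2 averaged 73.0 ± 7.43 TPM in KO and 60.2 ± 3.77 TPM in WT libraries, without overlap (0.27, adjusted p = 0.235). Plxna4 was 1.48, 1.64 and 1.33 times Plxna1 in KO libraries and 0.85, 0.83 and 0.98 times in WT libraries, so the order of this pair of genes differed between the groups in every library. Plxnc1, the receptor of Sema7a, averaged 28.5 ± 3.72 TPM in KO and 22.4 ± 6.03 TPM in WT libraries (0.36, adjusted p = 0.335). Plxnd1, the receptor of Sema3e, was low in both, at 1.44 ± 0.23 TPM in KO and 2.24 ± 0.51 TPM in WT libraries (-0.40, adjusted p = 0.488). Plxnc1 and Plxnd1 are named as partners of called genes, outside the rule.

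No ephrin passed limma among the 5 tested, with 0 higher and 1 lower (Efnb2) at an unadjusted p below 0.05. Efnb2, which encodes ephrin-B2, was the most abundant ephrin, at 78.8, 61.9 and 89.7 TPM in KO libraries, against 107, 148 and 108 TPM in WT libraries. All KO values were below all WT values, and the difference of -0.65 (SE 0.18) missed the threshold (adjusted p = 0.069). Efna5, the main A ephrin, averaged 58.8 ± 8.46 TPM in KO and 46.6 ± 7.42 TPM in WT libraries (0.33, 95% interval -0.04 to 0.71). Efna1 and Efna3 averaged 4.70 ± 3.11 and 2.40 ± 1.15 TPM in KO libraries, against 6.26 ± 2.73 and 1.28 ± 1.21 TPM in WT libraries. Efnb1 averaged 0.72 ± 0.75 TPM in KO and 1.46 ± 0.16 TPM in WT libraries, and the untested Efnb3 averaged 0.09 ± 0.16 TPM in KO and 0.61 ± 0.38 TPM in WT libraries. The sums of the A ephrins were 54.1 to 75.7 TPM in KO and 44.3 to 64.4 TPM in WT libraries, and those of the B ephrins 61.9 to 91.2 TPM in KO and 109 to 150 TPM in WT libraries.

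Of 9 tested Eph receptors, Ephb1 fell and 8 did not pass, and all 9 differences were negative. Ephb1 (chromosome 9, 101922128 to 102354693), a receptor of B ephrins, was at 0.42, 0.45 and 0.52 TPM in KO libraries, against 3.92, 4.78 and 3.68 TPM in WT libraries. The KO libraries were uniformly near 0.5 TPM and the WT libraries near 4 TPM. The means were 0.46 ± 0.05 TPM in KO and 4.13 ± 0.58 TPM in WT libraries (SD, n = 3 each). Their log2 difference was -1.80 (SE 0.31, adjusted p = 0.0161). The call was lost without KO replicates 1 or 2 (adjusted p = 0.0717 and 0.0524) or WT replicate 3 (0.0512), at differences of -1.78, -1.80 and -1.87. With the glia covariate the difference was -1.90 (adjusted p = 0.0651).

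The annotated untranslated region of Ephb1 (1746 bases, minus strand) also holds 2 matches to miR-183, although this gene was lower in KO libraries:
miR-183 match, chr9:102040416-102040438: atgctgcaGTGCCATagagtctt
miR-183 match, chr9:102039434-102039456: acagcctgGTGCCATggagatgt
Of 2264 tested genes with a region of similar length, 12.1% held the match and 1.02% held it at least 2 times. These matches lie well inside the gene and not near its 3′ end at position 101922128. The region used is thus that of a transcript that may end early, and its use in these neurons is not known. Over all 11 families, matches were found in 3 of the 4 genes that rose (none in Nrp1, whose region has 549 bases) and in 4 of the 5 that fell (none in Sema7a). Single families matched from 10.2% (miR-96) to 23.3% (miR-128) of 11525 tested genes. The share of tested genes with a match to any of the families was not computed, so these counts have no background beside them. The median region was 3271 bases in the genes that rose, 1746 bases in those that fell and 1261 bases over 11525 tested genes. The 1746 bases are those of the Ephb1 region. Longer regions hold more matches by length alone.

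The remaining Eph receptors were led by Epha6, at 30.4 ± 6.74 TPM in KO and 32.8 ± 2.13 TPM in WT libraries (-0.13, 95% interval -0.54 to 0.28). Epha5 averaged 5.12 ± 2.24 TPM in KO and 6.45 ± 0.86 TPM in WT libraries, and Epha7 averaged 4.83 ± 1.41 TPM in KO and 5.34 ± 1.24 TPM in WT libraries. Ephb6, which encodes a receptor without kinase activity, and Ephb2 averaged 2.21 ± 0.36 and 1.22 ± 0.76 TPM in KO libraries, against 2.78 ± 0.80 and 2.15 ± 1.11 TPM in WT libraries. Epha3 and Epha4, which in the mouse help to keep sensory and motor axons in separate tracts, are named for that role. Epha3 was at 1.70, 0.87 and 0.97 TPM in KO libraries and 2.38, 3.31 and 2.69 TPM in WT libraries, without overlap (-0.81, adjusted p = 0.178), and Epha4 averaged 2.62 ± 0.78 TPM in KO and 3.51 ± 0.54 TPM in WT libraries (-0.33, adjusted p = 0.533). The 5 EphB genes summed to 3.77 to 5.09 TPM in KO libraries and 10.1 to 10.5 TPM in WT libraries.

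Of 6 netrin receptor genes, 2 fell and 4 did not pass. Dcc (chromosome 18, 71253634 to 72351069), the attractive receptor, was at 0.48, 0.33 and 0.84 TPM in KO libraries, against 4.66, 5.46 and 3.43 TPM in WT libraries. No KO library reached 1 TPM and every WT library was above 3 TPM. The means were 0.55 ± 0.26 TPM in KO and 4.52 ± 1.02 TPM in WT libraries (SD, n = 3 each). Their log2 difference was -1.83 (SE 0.33, adjusted p = 0.0192). The call was lost without KO replicates 1 or 2 (adjusted p = 0.0821 and 0.0629) or WT replicates 2 or 3 (0.0574 and 0.0509). With the glia covariate the difference was -1.90 (adjusted p = 0.0763). The untranslated region of Dcc (5356 bases) holds 7 matches to 6 of the microRNA families, 2 of them to miR-128; of 800 tested genes with a region of similar length, 56.4% held the miR-128 match and 20.9% held it at least 2 times.

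Unc5b (chromosome 10, 60762593 to 60831581), a repulsive receptor, was at 1.49, 1.28 and 1.85 TPM in KO libraries, against 6.83, 7.74 and 6.46 TPM in WT libraries. Both groups were tight and far apart. The means were 1.54 ± 0.29 TPM in KO and 7.01 ± 0.66 TPM in WT libraries (SD, n = 3 each; log2 difference -1.66, SE 0.26, adjusted p = 0.0124). The call was lost without KO replicate 1 (adjusted p = 0.0638) or WT replicate 3 (0.0509), and the difference was -1.66 with the glia covariate (0.0634).

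Unc5a and Unc5d were low in the same libraries without passing. Unc5a was at 4.12, 1.59 and 8.01 TPM in KO libraries, against 13.3, 17.8 and 11.1 TPM in WT libraries (log2 difference -1.59, SE 0.42, adjusted p = 0.0631), and it passed without KO replicate 3 (-2.02, adjusted p = 0.0355). Unc5d was at 0.29, 0 (as listed) and 0.21 TPM in KO libraries, against 1.39, 3.40 and 1.90 TPM in WT libraries (-1.43, adjusted p = 0.0749). Neither pair of groups overlapped. Unc5c, the most abundant of these receptors, was at 47.6, 34.4 and 38.3 TPM in KO libraries, against 26.8, 26.4 and 31.5 TPM in WT libraries, also without overlap but with KO above (0.48, adjusted p = 0.114). Within a library, Unc5c was 32.0, 26.9 and 20.7 times Unc5b in KO libraries and 3.92, 3.41 and 4.87 times in WT libraries. Neo1, which encodes neogenin, the Dcc relative that also binds repulsive guidance molecules, averaged 23.8 ± 8.15 TPM in KO and 24.7 ± 3.82 TPM in WT libraries (-0.10, 95% interval -0.68 to 0.48).

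**Figure D4:**
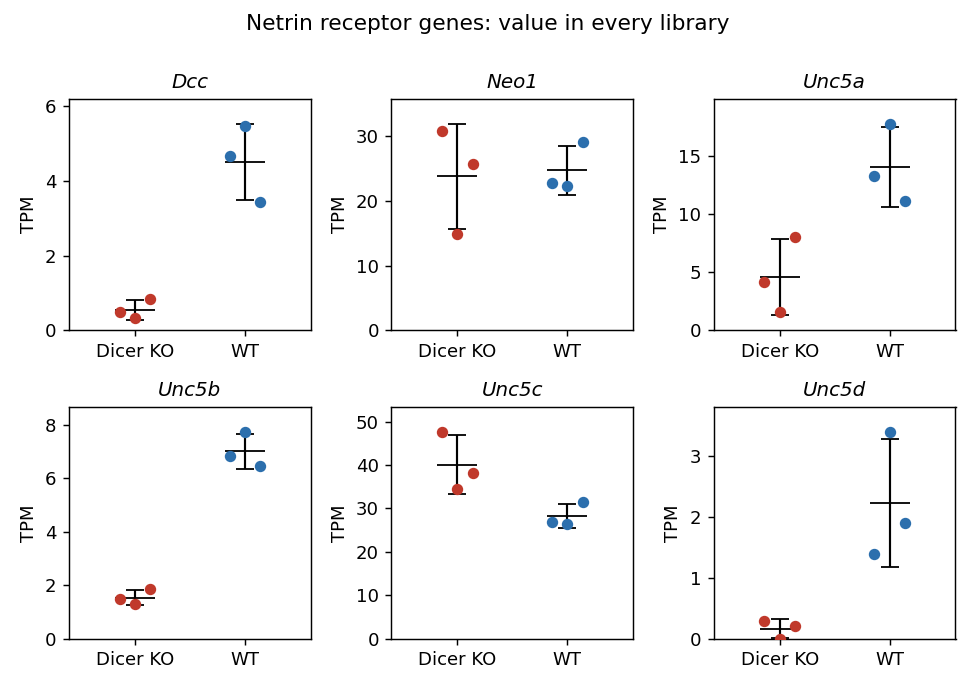
TPM of the 6 netrin receptor genes in each library (points, replicates 1 to 3 from left to right), with the mean and SD of 3 KO and 3 WT libraries; each panel has its own axis from 0. KO points lie below WT points for Dcc, Unc5a, Unc5b and Unc5d and above them for Unc5c. For Neo1 the KO points are spread above, between and below the WT points.

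The classical netrins themselves were low in all libraries. Ntn4, a laminin-binding netrin, was at 2.64, 2.34 and 2.83 TPM in KO libraries, against 1.91, 1.28 and 1.19 TPM in WT libraries, without overlap (0.56, adjusted p = 0.314). Ntn1 was at most 0.30 TPM in any library, Ntn3 averaged 0.37 ± 0.06 TPM in KO and 0.48 ± 0.25 TPM in WT libraries, and Ntn5 averaged 0.41 ± 0.35 TPM in KO and 0.60 ± 0.71 TPM in WT libraries. They belong to the 15 untested genes, which reached at most 1.69 TPM and were listed at 0 in 30 of 90 values, 11 of them in KO replicate 2 and 8 in WT replicate 2. The highest mean among them was that of Sema4c, at 0.42 ± 0.37 TPM in KO and 1.04 ± 0.57 TPM in WT libraries, and Efna2 followed at 0.45 ± 0.60 TPM in KO and 0.82 ± 0.17 TPM in WT libraries. Ephb3 averaged 0.33 ± 0.05 TPM in KO and 0.95 ± 0.45 TPM in WT libraries and Plxnb1 averaged 0.20 ± 0.25 TPM in KO and 0.68 ± 0.16 TPM in WT libraries, both without overlap.

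Partners and signalling genes of these pathways mostly did not pass. Of 71 listed genes, 64 were tested, 1 rose and 4 fell, and 59 did not pass. The called share was 7.81%, against 5.03% of all tested rows, with 1.56% higher against 1.86% and 6.25% lower against 3.17%. These shares count Efr3a among the 4 lower genes, although its product does not do what its list's name says (below). The median difference of the 64 tested genes was -0.14, against -0.05 over all rows. Among 15 tested co-receptors and other ligands, Nrcam, an adhesion molecule that associates with neuropilin-2, was at 377, 316 and 304 TPM in KO libraries, against 216, 195 and 202 TPM in WT libraries (0.70, SE 0.12, adjusted p = 0.0142). Rgma, which encodes a GPI-anchored ligand of neogenin, was at 1.81, 1.28 and 3.45 TPM in KO libraries, against 14.2, 7.86 and 13.2 TPM in WT libraries (-2.02, SE 0.34, adjusted p = 0.0139). Neither pair of groups overlapped. Nrcam was lost without KO replicate 1 or WT replicates 2 or 3 (adjusted p = 0.0687, 0.0532 and 0.0689), and Rgma without KO replicates 1 or 2 or WT replicate 3 (0.0807, 0.0531 and 0.0788). With the glia covariate Rgma was at -1.48 (adjusted p = 0.0758).

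Of 16 tested genes listed for Eph signalling, 3 fell. Vav3, a guanine nucleotide exchange factor, was at 11.03, 7.07 and 8.75 TPM in KO libraries, against 20.9, 32.9 and 26.1 TPM in WT libraries (-1.47, SE 0.23, adjusted p = 0.011), and was lost without WT replicate 3 (0.0627). Nck1, an adaptor protein, averaged 25.5 ± 4.90 TPM in KO and 41.2 ± 2.5 TPM in WT libraries (-0.68, adjusted p = 0.0499), and held only without KO replicate 3, with adjusted p of 0.165 and 0.154 without KO replicates 1 and 2 and of 0.0705, 0.117 and 0.154 without WT replicates 1, 2 and 3. Efr3a was at 31.6, 25.9 and 29.8 TPM in KO libraries, against 105, 124 and 106 TPM in WT libraries (-1.90, SE 0.13, adjusted p = 0.000439), and held without any single library. Its product anchors a lipid kinase at the plasma membrane, so it does not do what the list's name says. None of 20 semaphorin signalling genes and none of 13 netrin signalling genes passed limma, where an unadjusted p below 0.05 was reached by 2 higher and 3 lower semaphorin genes and by 0 higher and 4 lower netrin genes. Dpysl2, the most abundant collapsin response mediator, averaged 570 ± 51.8 TPM in KO and 643 ± 31.5 TPM in WT libraries (adjusted p = 0.359).

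Markers of other cells and of other sensory neurons were read beside these changes. Fewer cells of a type and less RNA per cell cannot be told apart in such samples. Of 6 tested nociceptor markers, Tac1 fell and 5 did not pass, all 5 with positive differences. Scn10a (1.93, limma adjusted p = 0.144) and Scn11a (1.42, adjusted p = 0.0917) were higher in every KO library than in any WT library. The nociceptor list, mostly Calca, summed to 173 to 220 TPM in KO and 96.9 to 318 TPM in WT libraries. Trpv1 was at 0 in all KO libraries and at 0.3, 0 and 0 TPM in WT libraries. Mrgprd was at 3.99, 0.83 and 0 TPM in KO libraries and at 0 in all WT libraries, and neither gene was tested. Of 7 touch receptor markers, Ret and Gfra2 rose and Cntnap2 and Calb2 fell, with sums of 512 to 629 TPM in KO and 452 to 537 TPM in WT libraries. Of 3 tested Schwann cell markers Pmp22 rose, and the list summed to 1039 to 1391 TPM in KO and 449 to 529 TPM in WT libraries, nearly all of it Pmp22, with Mag at 0 in all WT libraries. None of 4 fibroblast markers passed (28.3 to 44.0 TPM in KO and 22.9 to 46.0 TPM in WT libraries), nor did the 1 tested macrophage marker (3.87 to 5.97 TPM in KO and 6.02 to 8.76 TPM in WT libraries, summed), with C1qa at 0 in all libraries and C1qb at 0 in all WT libraries. The part of these transcripts in the differences of the guidance genes was not tested. The glia covariate cannot settle it for glia, because it tended to go with genotype.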

How the data were processed

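The authors deposited 1 table of TPM values, with 6 library columns that were not pooled. Per the submitters' processing notes, tools included cutadapt, Bowtie2 and RSEM 1.2.7 on mm10; the sources used here name no annotation. Per the labels' protocols, RNA was extracted with PicoPure and amplified with the Ovation system, which adds noise to rare transcripts. RSEM assigns shared reads by a model, so close relatives among the guidance genes can exchange reads, and an exact 0 can be a failed estimate.

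Tests used limma 3.58.1 in R 4.3.3 (trend, two-sided, genotype only) on log2(TPM + 1). With 3 libraries a group an exact permutation test reaches 0.1 at best, so none is given. The step was tested on simulated data for this KO against WT comparison (13787 rows, 10 runs of 200 changed genes). Changed genes were drawn only from rows whose mean log2(TPM + 1) was above 2. Shifts of 0.585, 1 and 2 in either direction were added on log2(TPM + 1), which are 1.5-fold, 2-fold and 4-fold changes of TPM + 1. The TPM of low genes changes more than that. The step recovered 17.8%, 57.0% and 97.3% of these shifts, and 7.07% of calls were false. Lower genes, Dcc, Ephb1 and Sema6b among them, were outside this draw, so recovery at their level was not tested.

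The genes, lists and tests were chosen with earlier results of these data known. Named are all called genes, the 3 highest of each role, genes without overlap that differ by at least 1 log2 unit and the 6 highest untested ones; others are stated. Marker lists covered proprioceptors, nociceptors, touch receptors, satellite glia, Schwann cells, fibroblasts, endothelial and mural cells and macrophages. Whrn was not found by name. Alternatives were another pseudocount, filter or scaling, a replicate block, library weights, a glia covariate, the 4 Xist-expressing libraries and each library left out. Coordinates come from GENCODE vM21 (GRCm38, which is mm10). Of 12 microRNA families listed, 11 matched the RefSeq table; miR-124 was not used here. Python 3.11.15 served for counting and figures.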

Additional observations from a re-analysis of the deposited data

How the results depend on the processing

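The counts of 4 higher and 5 lower guidance genes, and of 1 higher and 4 lower partner genes, depended on the number of libraries and on the filter. Without a filter on low values (31469 rows, 7 higher and 12 lower among them) the guidance genes had 0 and 0 calls and the partners 0 and 1. With a mean of at least 5 TPM only 1 lower guidance gene was called, since the other 4 were not tested, and 3 partners were higher. Rescaling by median of ratios or quantile normalization called 2 partners higher; rises made up 49.3% of all calls with the first and 45.8% with the second, against 36.9%. In the 4 Xist-expressing libraries (3 higher and 14 lower over all rows) the guidance genes had 1 and 0 calls and the partners 0 and 1. With the satellite glia covariate (71 and 97 over all rows) the counts were likewise 1 and 0, and 0 and 1. In both of these settings, and without a filter, the 1 lower partner was Efr3a. Its product does not do what its list's name says. Leaving out 1 library gave 1 to 2 higher and 0 to 4 lower guidance genes, and 0 to 2 higher and 1 to 4 lower partners. A replicate block used the numbers that the labels share. Correlations of same-numbered deviations were 0.049, 0.066 and 0.038. KO replicates 2 and 3 were closest to the WT library of the same number, and KO replicate 1 to WT replicate 3. Whether the numbers pair the libraries is not known. The block called 1 higher and 3 lower guidance genes and 1 higher and 3 lower partners. The causes were not tested.

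Some differences that passed in no setting changed sign. Leaving out 1 library gave -0.84 to 0.10 for Efna1, -0.27 to 0.047 for Epha6, -0.26 to 0.085 for Epha7, -0.31 to 0.19 for Neo1 and -0.067 to 0.046 for Plxna1. With the glia covariate Efna1 was at 0.11, Epha6 at 0.0056, Epha7 at 0.18 and Neo1 at 0.26. Plxna1 was at 0.058 with median-of-ratios, 0.051 with quantile scaling and 0.039 with library weights, under which Neo1 was at 0.0065. Epha5 was at 0.066 in the Xist-expressing libraries.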

Other observations

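Ntng1 lies on chromosome 3 next to Vav3 in the annotation (GRCm38), with 94341 bases between the ends of the 2 genes and no other protein-coding gene of the table in that gap. They differed in opposite directions, with Ntng1 at 1.26 and Vav3 at -1.47 on the log2 scale, KO minus WT. On the other side of Ntng1, Prmt6, which encodes an arginine methyltransferase, was at 26.2, 25.3 and 24.8 TPM in KO libraries and 18.2, 20.1 and 17.8 TPM in WT libraries, without overlap and without passing (0.42, adjusted p = 0.121). The table holds 21 other protein-coding genes within 1500000 bases of Ntng1, of which 14 were tested; besides Vav3, Fam102b (-2.14, adjusted p = 0.0124) and Sort1, which encodes the sorting receptor sortilin (-1.49, adjusted p = 0.0349), were also called lower. These genes were picked for their position after the values were seen. Over all tested rows 3.17% were called lower, and a link with position was not tested.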
